A study of Rattus norvegicus with 4 samples.

Results

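Transcripts of the Wnt pathway were measured in rat tail tendon fibroblasts after exposure to the releasate of clotted PRP or of clotted PPP. The genes were taken by symbol: the Wnt, Fzd, Sfrp, Dkk and Rspo families, and a fixed set of co-receptors, secreted antagonists, intracellular components and feedback inhibitors. They came to 53 genes, each with 1 probe set, of the 14557 genes that 14824 single-symbol probe sets represent. Wnt3a, Wnt7b, Wnt8b, Fzd3, Fzd10, Lrp6, Sfrp4, Rspo2, Rnf43, Znrf3, Axin1, Lef1 and Tcf7l2 also fall under that choice and were not analysed here.

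The PRP group (2 arrays) received medium with 10% PRP clot releasate for 24 hours, and the PPP group (2 arrays) received medium with 10% PPP clot releasate for the same time. PRP and PPP usually stand for platelet-rich and platelet-poor plasma; the labels give the abbreviations only. Cells of both groups came from tail tendons of Lewis rats described as retired breeders, sat in type I collagen gels, and had grown for 2 days with 10% fetal bovine serum before the change of medium. No group without plasma was analysed, so each difference is relative: it sets one plasma product against the other and cannot be assigned to either alone. The labels give neither the plasma donors nor whether replicates were separate animals or cultures. The p-values thus rest on array-to-array spread alone, some or all of which could be technical. Of 12 markers of tendon fibroblasts 11 had a mean level above the median of all named probe sets, among them Col1a1 (log2 values of 9.48 and 9.43 on the PRP arrays and 10.21 and 10.02 on the PPP arrays). Tnmd, a defining marker of tendon cells, was the 1 below it, at 3.23 and 2.99 with PRP and 4.43 and 4.50 with PPP.

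Wnt proteins are secreted lipid-modified ligands that bind Frizzled receptors. With the co-receptors Lrp5 and Lrp6 they halt the destruction complex of Axin, Apc and Gsk3b, so that beta-catenin accumulates and acts with TCF/LEF factors on target genes. Other ligands, of which Wnt5a is the best known, act mainly through Ror2, Ror1 or Ryk on cell polarity, movement and calcium without beta-catenin. R-spondins bind Lgr4 and Lgr5 and keep Frizzled receptors at the cell surface, whereas Sfrp, Dkk, Wif1 and Notum proteins act outside the cell and most of them oppose the signal.

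Wnt5a was the 1 member that was called higher with PRP, at 3.22-fold, and Nkd2 and Lgr5 were called lower, at 2.22-fold and 2.12-fold. Nkd2, naked cuticle homolog 2, is an inhibitor that binds Dishevelled, and Lgr5 is a receptor for R-spondins. A call means a Benjamini-Hochberg adjusted p below 0.05 by limma over all 14824 probe sets, at which 1.85% of them were called (0.83% higher, 1.02% lower). Of the 53 members 3 were called (5.66%) and 50 were not. The 50 members not called had log2 differences between -0.64 and 0.60. In all, 35 of 53 members (66%) had a negative log2 difference (PRP minus PPP) and 18 a positive one, beside 50.7% negative over all probe sets. Their median was -0.11 beside -0.0027 over all probe sets. The median size of the difference, whatever its sign, was 0.22 in the members and 0.14 over all probe sets, and 17 members (32.1%) had an unadjusted p below 0.05, beside 16.3% of all probe sets. Both PRP arrays lay below both PPP arrays in 23 members, and above them in 8. The same held for 22.5% and 23.9% of all probe sets, 46.4% together.

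**Figure D1:**
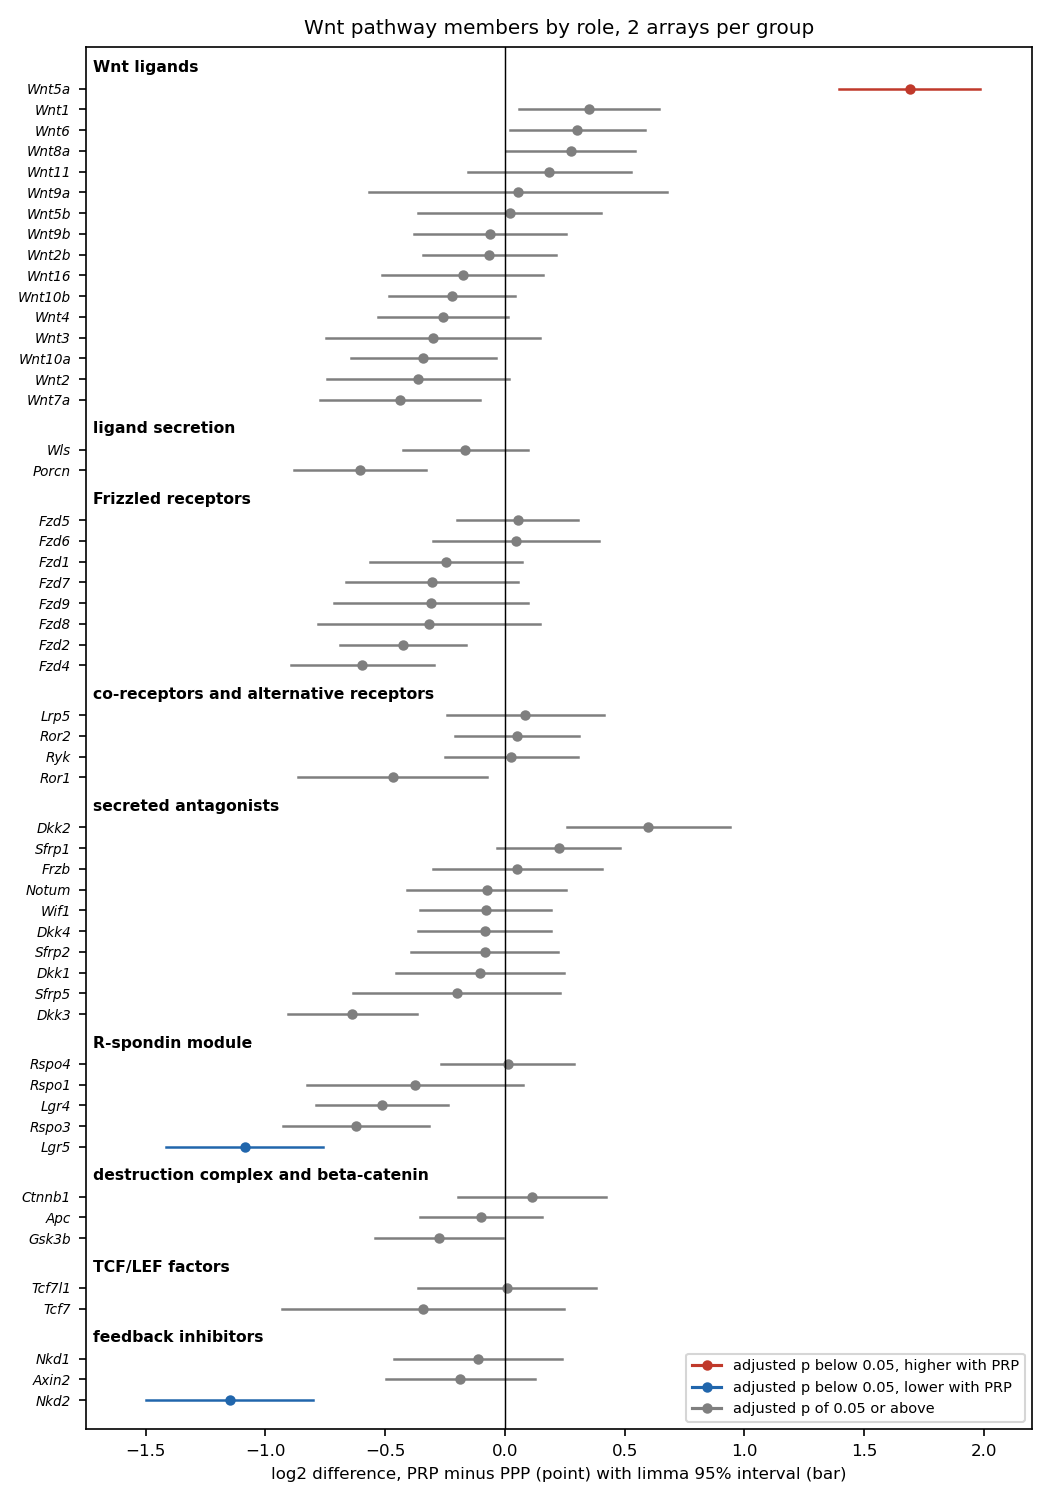
Log2 difference, PRP minus PPP, of each of the 53 members (point) with its limma 95% interval (bar), grouped by role; 2 arrays per group. Wnt5a stands at 1.69 and Nkd2 and Lgr5 at -1.15 and -1.09, while all other members lie between -0.64 and 0.60.

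Upstream sequence is shown for Wnt5a and Nkd2, which were called, for Nkd1, the paralog of Nkd2, and for Axin2, a feedback gene widely used as a readout of beta-catenin activity. Each window covers 250 bases before to 50 bases after the annotated gene start (RefSeq, GRCr8), 5′ to 3′ on the gene's own strand. Capitals mark CTTTGAA or CTTTGAT, forms of the TCF/LEF motif, searched on both strands.
Wnt5a (chr16:3703415-3703714, plus strand): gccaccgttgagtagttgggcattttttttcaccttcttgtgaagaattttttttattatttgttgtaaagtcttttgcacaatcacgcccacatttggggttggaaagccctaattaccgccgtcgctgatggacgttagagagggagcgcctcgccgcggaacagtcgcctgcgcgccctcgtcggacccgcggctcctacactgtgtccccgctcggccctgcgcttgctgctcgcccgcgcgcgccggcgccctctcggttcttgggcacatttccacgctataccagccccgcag
Nkd2 (chr1:31272282-31272581, plus strand): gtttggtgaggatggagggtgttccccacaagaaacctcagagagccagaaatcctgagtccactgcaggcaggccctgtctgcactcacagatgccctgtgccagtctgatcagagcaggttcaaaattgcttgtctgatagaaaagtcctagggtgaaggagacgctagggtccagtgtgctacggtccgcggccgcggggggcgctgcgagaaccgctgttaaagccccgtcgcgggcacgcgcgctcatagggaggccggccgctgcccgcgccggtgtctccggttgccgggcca
Nkd1 (chr19:34722797-34723096, minus strand): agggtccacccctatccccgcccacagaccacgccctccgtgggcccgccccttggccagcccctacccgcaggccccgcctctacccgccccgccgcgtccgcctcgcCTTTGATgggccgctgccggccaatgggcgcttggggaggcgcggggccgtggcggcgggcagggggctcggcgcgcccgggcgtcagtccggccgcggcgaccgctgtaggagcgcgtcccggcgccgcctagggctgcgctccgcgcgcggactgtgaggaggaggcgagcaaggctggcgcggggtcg
Axin2 (chr10:94398535-94398834, plus strand): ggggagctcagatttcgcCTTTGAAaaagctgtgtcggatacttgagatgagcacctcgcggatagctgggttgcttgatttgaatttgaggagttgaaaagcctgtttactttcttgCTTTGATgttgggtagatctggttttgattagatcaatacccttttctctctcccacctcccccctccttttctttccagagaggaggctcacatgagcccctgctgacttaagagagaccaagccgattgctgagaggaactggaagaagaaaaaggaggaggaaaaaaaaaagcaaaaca

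The window of Axin2 held the motif at 232 and 132 bases before the start, and that of Nkd1 at 141 bases before it. The windows of Wnt5a and Nkd2 held neither form. Windows were found for 41 of the 53 genes (Lgr5 is not among them), 42 windows in all because Wls had 2, and 6 of the 42 held the motif (14.3%). Of all 33469 windows of that length 8.73% did. The other windows with a match were those of Dkk1, Fzd7, Tcf7 and Wnt8a, none of which was called. The AP-1 motif, TGACTCA or TGAGTCA on both strands, was in 2.38% of the members' windows and in 4.63% of all windows. A match describes the letters of a window and is not a binding site, and no match says only that these letters are not in the window. The member windows had a median GC content of 65.3%, against 51.7% over all windows.

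Among the ligands, Wnt5a had log2 values of 7.80 and 7.65 on the PRP arrays and 5.96 and 6.11 on the PPP arrays. Its groups were far apart beside the gap within either of them, with a log2 difference of 1.69 (SE 0.12, 95% interval 1.40 to 1.98, adjusted p 0.00376 by limma). It had the 35th smallest p of the 14824 probe sets. The call held with each array left out in turn, at log2 differences of 1.61 to 1.76 and adjusted p up to 0.0443. It ended when the 36685 probe sets of the whole table, most of them unnamed here, were fitted together (adjusted p 0.0868), a fit that called 2 probe sets in all and none of the members. Over all 10 other settings its adjusted p ran from 4.14e-05 to 0.0868. In such bulk RNA, a change in the number of cells that make a transcript cannot be told apart from a change in the amount per cell.

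Limma called 0 of the 15 other ligands, and 5 of them had an unadjusted p below 0.05. These were Wnt7a and Wnt10a with lower values with PRP (log2 differences -0.44 and -0.34) and Wnt1, Wnt6 and Wnt8a with higher ones (0.35, 0.30 and 0.27). Their adjusted p ran from 0.209 to 0.303 by limma. An unadjusted p below 0.05 was found in 16.3% of all probe sets, 8.53% with higher and 7.74% with lower values. Wnt1, a classical activator of beta-catenin, illustrates their scale, with log2 values of 4.07 and 3.97 with PRP and 3.58 and 3.76 with PPP. The groups of these 5 ligands did not overlap, as in 46.4% of all probe sets. Their choice by p makes that likely, so it adds nothing. All 5 had a mean level below the median of the named probe sets (4.11). That median is not a limit of detection, and without detection calls their signal over background is unknown.

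Wnt4, a ligand of kidney and gonad development, had log2 values of 4.33 and 4.44 with PRP and 4.69 and 4.60 with PPP, a difference of -0.26 (95% interval -0.53 to 0.01). Wnt5b, the closest relative of Wnt5a and named here for that reason after its values were seen, had 3.91 and 3.99 with PRP and 4.13 and 3.73 with PPP. Its groups overlapped, and the interval of its log2 difference ran from -0.36 to 0.40. Whether Wnt5a and Wnt5b differed in their response was not tested. The log2 differences of Wnt2, Wnt2b, Wnt3, Wnt9a, Wnt9b, Wnt10b, Wnt11 and Wnt16 lay between -0.36 and 0.19, and none was called.

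**Figure D2:**
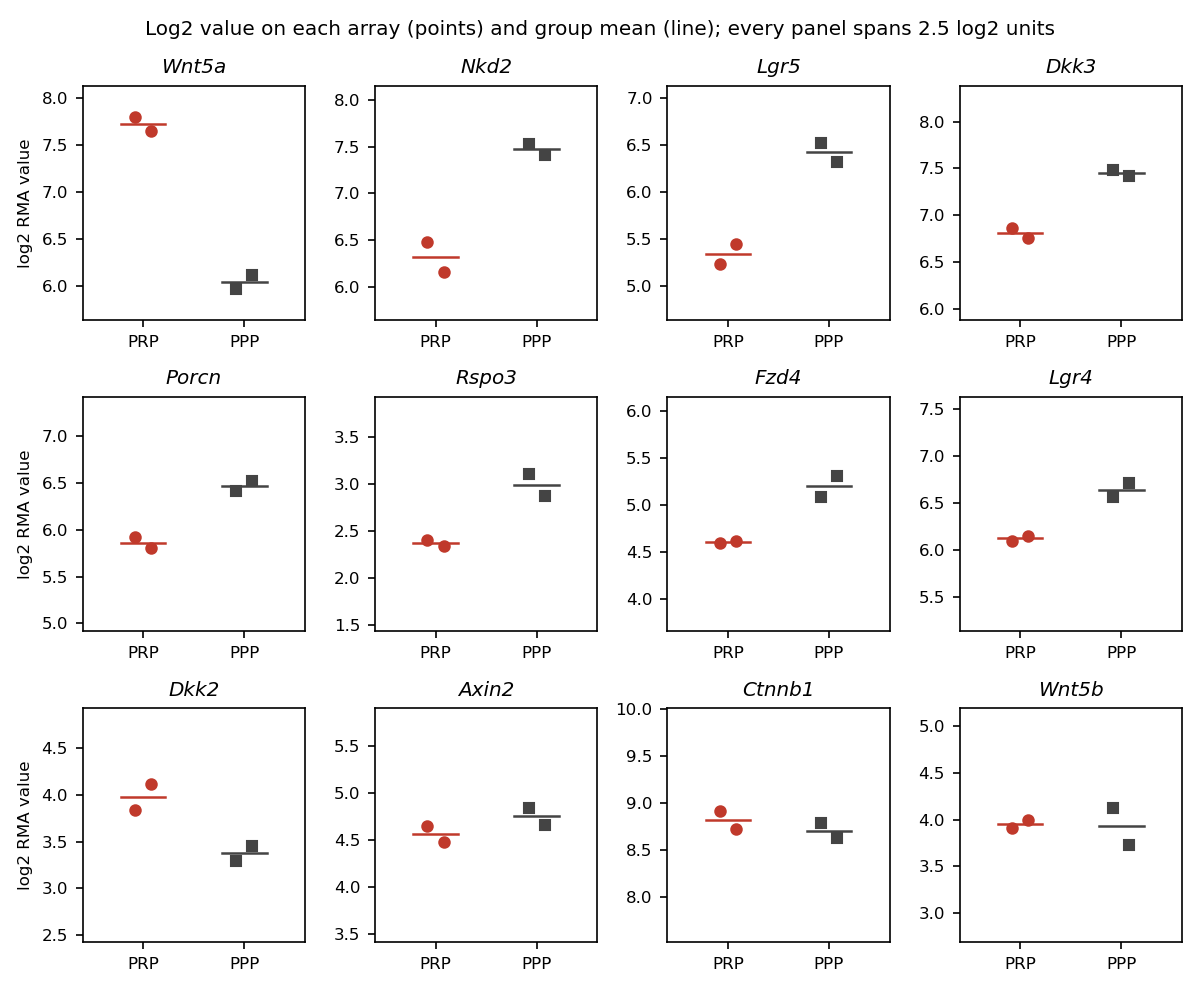
Log2 RMA value on each array (points; PRP circles, PPP squares) with the group mean (line) for 12 members; all panels span 2.5 log2 units. Wnt5a is at 7.80 and 7.65 with PRP against 5.96 and 6.11 with PPP, Nkd2 and Lgr5 are more than 1 unit lower with PRP, and the arrays of Ctnnb1 and Wnt5b overlap.

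Wnt ligands need lipid attachment by Porcn, an acyltransferase of the endoplasmic reticulum, and transport to the surface by Wls. Porcn had log2 values of 5.92 and 5.81 with PRP and 6.41 and 6.52 with PPP. The groups did not overlap, as in 46.4% of all probe sets. The log2 difference of -0.60 (SE 0.11) missed the threshold with an adjusted p of 0.0712 by limma. Wls had 8.55 and 8.58 with PRP and 8.69 and 8.77 with PPP, a difference of -0.16 (95% interval -0.42 to 0.09). Neither gene of ligand secretion was called by limma, and 1 of the 2 had an unadjusted p below 0.05, beside 16.3% of all probe sets.

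Most Frizzled receptors had smaller values with PRP, but limma called 0 of 8. An unadjusted p below 0.05 was found in 2 of them (25%), beside 16.3% of all probe sets. The median log2 difference of the 8 receptors was -0.31, and 6 were negative (75%), beside 50.7% of all probe sets. Fzd4, which is also the receptor of norrin in blood vessels, had log2 values of 4.60 and 4.61 with PRP and 5.09 and 5.31 with PPP, a difference of -0.60 (SE 0.12, adjusted p 0.0912). Fzd2, a receptor for Wnt5a among others, had 5.81 and 5.71 with PRP and 6.19 and 6.18 with PPP, a difference of -0.43 (SE 0.11, adjusted p 0.141). In Fzd7, another broadly used receptor, the values were 5.97 and 6.28 with PRP and 6.51 and 6.35 with PPP. The gap between groups in Fzd7 was smaller than the gap between its PRP arrays, whereas in Fzd4 and Fzd2 it exceeded both gaps within groups. Fzd1, Fzd8 and Fzd9 had log2 differences from -0.32 to -0.25, and Fzd5 and Fzd6 were each at 0.05.

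Of the co-receptors and alternative receptors Lrp5, Ror1, Ror2 and Ryk, Ror1 had the difference farthest from 0. The tyrosine kinase-like receptor Ror1 had log2 values of 4.58 and 4.22 with PRP and 4.98 and 4.76 with PPP, a difference of -0.47 (SE 0.16, adjusted p 0.242). Ror2, the main receptor of Wnt5a, had 6.45 and 6.42 with PRP and 6.43 and 6.34 with PPP, and Ryk, a pseudokinase receptor, 8.52 and 8.42 with PRP and 8.50 and 8.38 with PPP. Both overlapped, at 0.05 and 0.03, and their 95% intervals ran from -0.21 to 0.31 and from -0.25 to 0.30. Lrp5 had a difference of 0.09 (95% interval -0.24 to 0.41). Limma called 0 of these 4, with 1 (25%) at an unadjusted p below 0.05, beside 16.3% of all probe sets. After cyclic loess the differences of Ror2 and Ryk were -0.025 and -0.016, so they have no settled sign.

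The R-spondin receptors Lgr5 and Lgr4 had lower values with PRP. Their relative Lgr6, listed here under textbook beta-catenin targets and not a member, had a log2 difference of -0.09 with overlapping groups. Lgr5, which marks stem cells of the gut and other epithelia, had log2 values of 5.23 and 5.44 with PRP and 6.53 and 6.32 with PPP. It fell by 1.09 on the log2 scale (SE 0.13, 95% interval -1.41 to -0.76, adjusted p 0.0198 by limma). The groups did not overlap, which a call by p makes likely. Leaving out any 1 of the 4 arrays ended this call (adjusted p 0.0812 to 0.142), while the log2 difference stayed between -1.19 and -0.98. Over the 10 other settings the adjusted p of Lgr5 ran from 0.00172 to 0.180. Lgr4, its widely expressed relative, had 6.10 and 6.15 with PRP and 6.56 and 6.71 with PPP, a log2 difference of -0.51 (SE 0.11) that missed the threshold (adjusted p 0.110). Of the ligands, Rspo3 had 2.40 and 2.33 with PRP and 3.10 and 2.87 with PPP, a log2 difference of -0.62 (SE 0.12, adjusted p 0.0852), at a level below the median of the named probe sets. Rspo1 and Rspo4 had log2 differences of -0.38 and 0.01. In all, 1 of 5 genes of this group fell (20%) and none rose, where 1.85% of all probe sets were called. An unadjusted p below 0.05 was found in 3 (60%), all of them lower with PRP. The share over all probe sets was 16.3%, with 7.74% lower.

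No secreted antagonist was called by limma (0 of 10), and those nearest to the threshold had opposite signs. An unadjusted p below 0.05 was found in 2 of the 10 (20%), beside 16.3% of all probe sets. Dkk3, a divergent member of the Dickkopf family whose effect on Wnt signals depends on context, had log2 values of 6.87 and 6.75 with PRP and 7.48 and 7.42 with PPP. It was the member nearest to the threshold without passing it, at a log2 difference of -0.64 (SE 0.11, 95% interval -0.90 to -0.37, adjusted p 0.0580). Dkk2, which binds Lrp5 and Lrp6, ran the other way, with 3.83 and 4.11 with PRP and 3.30 and 3.45 with PPP, a difference of 0.60 (SE 0.14, adjusted p 0.122). Its level was below the median of the named probe sets. Both genes had groups that did not overlap, as in 46.4% of all probe sets, and their choice by p makes that likely.

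Sfrp1, a soluble decoy with a Frizzled-like domain, had log2 values of 3.48 and 3.47 with PRP and 3.28 and 3.22 with PPP, a difference of 0.22 (95% interval -0.03 to 0.48). Sfrp2, another decoy that connective tissue cells secrete, had 5.53 and 5.61 with PRP and 5.77 and 5.54 with PPP. Its groups overlapped and its interval ran from -0.39 to 0.22. For the Dickkopf antagonists Dkk1 and Dkk4, the decoys Sfrp5, Frzb and Wif1, and Notum, an enzyme that removes the lipid of Wnt ligands, the log2 differences lay between -0.20 and 0.05 with overlapping groups. Of these 6 only Dkk4 had a mean level above the median of the named probe sets.

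Inside the cell, no gene of the core of the beta-catenin branch was called. Ctnnb1, which encodes beta-catenin itself, had log2 values of 8.91 and 8.72 with PRP and 8.79 and 8.62 with PPP, overlapping groups and a difference of 0.11 (95% interval -0.20 to 0.42). Beta-catenin is controlled mainly through the stability of its protein, which arrays do not measure. Gsk3b, the kinase that marks it for breakdown, had 8.90 and 8.79 with PRP and 9.09 and 9.15 with PPP, a log2 difference of -0.28 (SE 0.11, adjusted p 0.296). Apc, the scaffold of the destruction complex, had a log2 difference of -0.10 (95% interval -0.36 to 0.16). Limma called 0 of these 3, with 1 (33.3%) at an unadjusted p below 0.05, beside 16.3% of all probe sets. The TCF/LEF factors Tcf7 and Tcf7l1 were not called either, at log2 differences of -0.34 and 0.01, and neither had an unadjusted p below 0.05. Tcf7 had log2 values of 5.14 and 4.61 with PRP and 5.48 and 4.96 with PPP, so that its arrays differed more within a group than the groups did, and its interval ran from -0.93 to 0.25. Tcf7l1 was at -0.017 after cyclic loess and has no settled sign.

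Axin2, Nkd1 and Nkd2, grouped here as feedback inhibitors, each restrain the pathway, and Wnt signalling is known to induce Axin2 and Nkd1. Whether Wnt signals act on Nkd2 in these cells was not tested. Nkd2 had log2 values of 6.48 and 6.17 with PRP and 7.53 and 7.41 with PPP. It fell by 1.15 on the log2 scale (SE 0.14, 95% interval -1.50 to -0.80, adjusted p 0.0201 by limma). Its groups did not overlap, which a call by p makes likely. Dropping any single array ended this call too (adjusted p 0.0540 to 0.158), at log2 differences from -1.30 to -0.99, and over the 10 other settings its adjusted p ran from 0.000841 to 0.185. Nkd1 had 4.61 and 4.28 with PRP and 4.58 and 4.53 with PPP, overlapping groups and a difference of -0.11 (95% interval -0.46 to 0.24). Axin2 had 4.65 and 4.48 with PRP and 4.84 and 4.66 with PPP. The 2 groups of Axin2 were only just apart, and its log2 difference of -0.19 (95% interval -0.50 to 0.12, adjusted p 0.535) was close to the gap between its arrays within a group. Whether Nkd2 differed in response from Axin2 or Nkd1 was not tested.

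**Figure D3:**
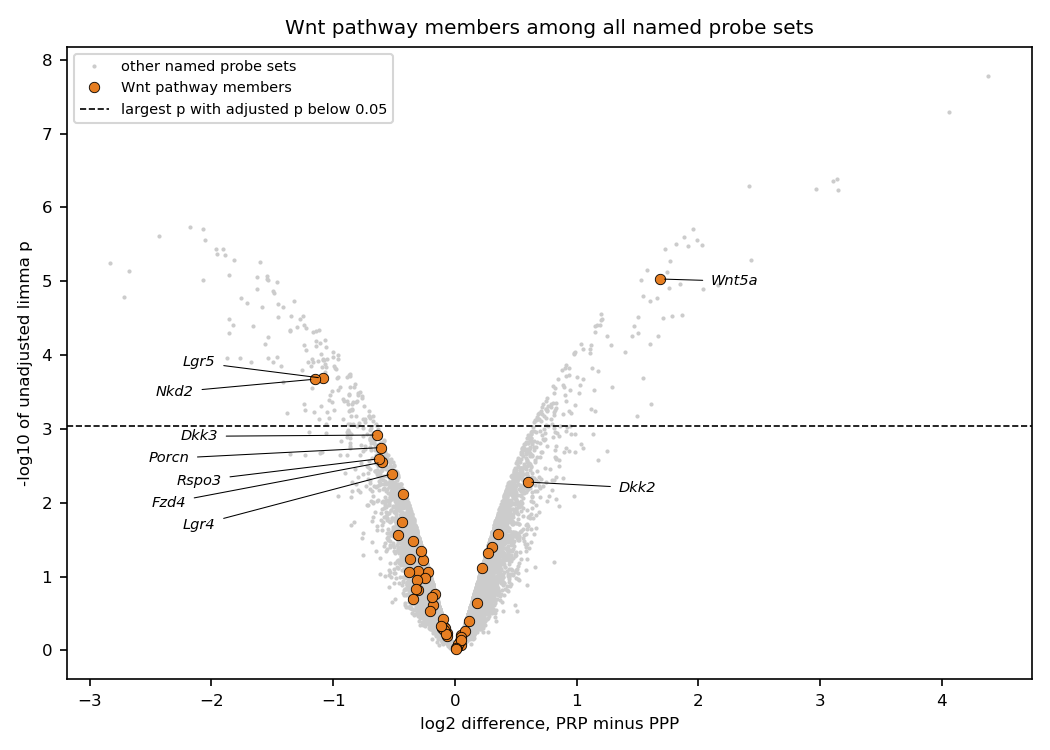
Log2 difference, PRP minus PPP (x axis), against -log10 of the unadjusted limma p (y axis) for the members (filled circles) and all other named probe sets (grey points). Wnt5a, Nkd2 and Lgr5 lie above the dashed line of the largest p that was called. Also labelled below that line are Dkk3, Porcn, Rspo3, Fzd4 and Lgr4, with lower values with PRP, and Dkk2, with higher ones.

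The level of a probe set bears on these counts. Of the 53 members 28 had a mean level above the median of all named probe sets, and all 3 calls were among them (10.7%, beside 3.32% of all probe sets above that median). The median log2 difference of these 28 was -0.22, with 21 negative (75%). The 25 members below the median level had a median of -0.08, with 14 negative (56%). Over all probe sets the corresponding medians were 0.04 and -0.04, with 41.4% and 59.9% negative. Some members that approached the threshold passed it under other settings. Rspo3 and Dkk2 passed it under none of the 9 settings that included them (smallest adjusted p 0.0600 and 0.0696 by limma). With an intensity trend in limma, Dkk3, Porcn, Lgr4 and Fzd4 were called lower as well, 7 members in all, where 5.45% of all probe sets were called. With probe sets below the median level left out, Fzd2 joined them, 8 called of the 28 members left, where 8.77% of probe sets were called. After cyclic loess, Dkk3 and Porcn were called lower beside Nkd2 and Lgr5, which made 4 lower and 1 higher, where 2.14% of all probe sets were called.

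**Figure D4:**
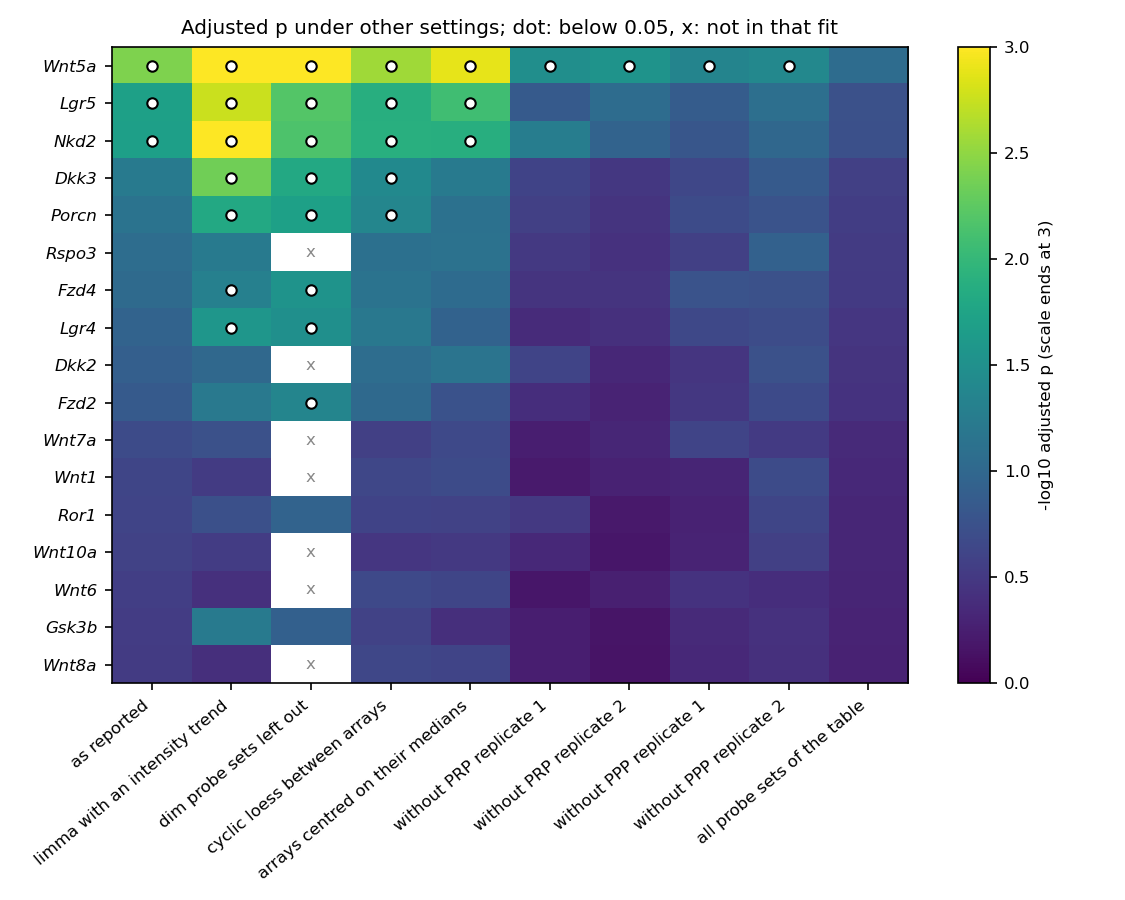
Adjusted p by limma, as -log10 (colour), of the 17 members with an unadjusted p below 0.05, as reported and under 9 of the 10 other settings (all but the replicate block); a dot marks an adjusted p below 0.05 and an x a probe set that is not in that fit. Wnt5a is called in all columns but the last, and Nkd2 and Lgr5 are not called in any column that leaves out an array or that fits the whole table.

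Of 15 measured genes of other extracellular Wnt modulators, 1 fell (6.67%) and none rose, where 1.85% of all probe sets were called. An unadjusted p below 0.05 was found in 6 (40%), all of them lower with PRP. The share over all probe sets was 16.3%, with 7.74% lower. The median log2 difference of the 15 was -0.17. Cthrc1, a secreted glycoprotein that promotes binding of Wnt ligands to Frizzled and Ror2, had log2 values of 5.74 and 5.97 with PRP and 6.70 and 6.83 with PPP. It fell by 0.91 on the log2 scale (SE 0.13, adjusted p 0.0328 by limma) and was no longer called once any single array was dropped (highest adjusted p 0.203). Gpc4, a cell-surface heparan sulphate proteoglycan, had 6.25 and 6.26 with PRP and 6.96 and 7.33 with PPP, a log2 difference of -0.89 that narrowly missed (adjusted p 0.0561).

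Among 23 measured genes of Wnt transduction inside the cell (24 probe sets), limma called 0, with a median log2 difference of -0.06. An unadjusted p below 0.05 was found in 5 of these probe sets (20.8%), beside 16.3% of all. Tle4, a Groucho co-repressor of TCF/LEF factors, had log2 values of 5.25 and 5.19 with PRP and 4.70 and 4.49 with PPP, a difference of 0.62 (SE 0.12, adjusted p 0.0796). Ctbp1, another co-repressor, had a difference of 0.36 (SE 0.11, adjusted p 0.209). Of the planar polarity and calcium branch limma called 0 of 13 measured genes, with 0 at an unadjusted p below 0.05. Their log2 differences ran from -0.26 to 0.21 with a median of 0.01, and in 8 of the 13 the groups did not overlap, as in 46.4% of all probe sets. Celsr2, a polarity cadherin, and Nlk, a kinase that acts on TCF/LEF factors, had the smallest p there, at -0.26 and 0.21.

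Textbook targets of beta-catenin outside the members went both ways. Of 16 measured, 2 rose, 1 fell and 13 were not called (18.8% called, beside 1.85% of all probe sets). An unadjusted p below 0.05 was found in 5 (31.2%, beside 16.3% of all probe sets), 3 higher and 2 lower. The median log2 difference was -0.04. Members, Axin2, Nkd1 and Lgr5 among them, were left out of this list and are given above. Ccn5, a matricellular protein also known as Wisp2, had log2 values of 5.23 and 4.97 with PRP and 6.71 and 6.64 with PPP. It fell by 1.58 on the log2 scale (SE 0.13, adjusted p 0.00586 by limma), and the call ended without PPP replicate 1 or PPP replicate 2 (adjusted p up to 0.0718). Fosl1 and Jun, subunits of the AP-1 transcription factor that many other signals also induce, rose by 0.90 and 0.82 (SE 0.12 each, adjusted p 0.0242 and 0.0383 by limma). Fosl1 had 7.69 and 7.52 with PRP and 6.67 and 6.74 with PPP, and Jun 7.19 and 6.96 with PRP and 6.28 and 6.24 with PPP. Neither was called once any single array was dropped (highest adjusted p 0.182 for Fosl1 and 0.241 for Jun). Myc, a growth-promoting transcription factor of the same list, had a log2 difference of 0.13 that was not called.

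Markers of other cell types were read beside these values. Over all probe sets 1.85% were called and 16.3% had an unadjusted p below 0.05. Summed over a list on the linear scale, the 7 smooth muscle and pericyte probe sets came to 1542 and 1455 with PRP and 1988 and 2013 with PPP, and of them Mcam, an adhesion molecule, fell by 1.27 on the log2 scale (adjusted p 0.00722). The 7 adipocyte markers summed to 285 and 306 with PRP and 155 and 173 with PPP, with Fabp4 and Lpl, a lipid carrier and a lipase, higher by 1.61 and 0.79. Yet 3 of the 7 had negative differences, and the list's median was 0.006. Adipoq and Plin1, which define the type, lay below the median level of all probe sets and were not called. Of 7 skeletal muscle markers (136 and 138 with PRP, 217 and 190 with PPP) Acta1, skeletal actin, fell by 1.12, while 4 of the 7 had positive differences and the list's median was 0.02. Of 6 platelet markers (123 and 132 with PRP, 85.6 and 96.9 with PPP) Pf4, platelet factor 4, rose by 1.85, while 3 of the 6 had negative differences, among them Ppbp at -0.16, and the median was -0.05. Limma called 0 of 11 leukocyte markers (185 and 181 with PRP, 159 and 171 with PPP), 0 of 8 endothelial markers (79.4 and 84.4 with PRP, 72.1 and 73.4 with PPP) and 0 of 6 keratinocyte markers (43.7 and 48.2 with PRP, 49.8 and 49.0 with PPP). In these 3 lists 4, 2 and 0 markers had an unadjusted p below 0.05. Of the 4 leukocyte markers 2 were higher and 2 lower with PRP, and of the 2 endothelial markers 1 was higher and 1 lower. The smallest p belonged to the myeloid adaptor Tyrobp (log2 difference -0.87), the angiopoietin receptor Tek (0.68) and the epithelial keratin Krt17 (-0.39). Fcer1g (0.55) ran against Tyrobp, and Esam (-0.48) against Tek. The 12 tendon fibroblast markers summed to 5389 and 5445 with PRP and 6612 and 6258 with PPP. Of them 2 fell, Fmod and Tnmd, by 2.43 and 1.36 on the log2 scale, and 9 had an unadjusted p below 0.05, 7 lower with PRP and 2 higher, Dcn and Pdgfra (0.56 and 0.55, not called). RMA values have no zero, so no marker can be said to be absent. Fmod and Pf4 were called whichever array was dropped, while Lpl and Acta1 were called in none of these fits (adjusted p as high as 0.257 and 0.237). Tnmd, Fabp4 and Mcam kept a call only without PRP replicate 1 (adjusted p as high as 0.0742, 0.0834 and 0.0718 without the other arrays). The part of these shifts in the values of Wnt5a, Nkd2 and Lgr5 was not tested.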

How the data were processed

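Total RNA was amplified, labelled with biotin and hybridised to Affymetrix arrays, per the labels' protocols. The deposited table holds log2 values of 36685 probe sets on 4 arrays. The authors used oligo, RMA and limma, per the submitters' processing notes, which give neither versions nor the order of steps. RMA equalises arrays, so a change in total RNA per cell would not show, and scanner files with detection calls were not used here. Levels of different probe sets were compared only roughly: to split them at the median level, to choose the 2 highest of a role for naming, and to sum marker lists, where bright probe sets weigh most. The genome build behind the arrays is not given in the sources used here.

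Gene symbols came from GEO's platform annotation: 14824 probe sets had 1 symbol, 829 had several and 21032 are unnamed here. All 53 members had an Entrez identifier in the GRCr8 table. The difference PRP minus PPP was fitted over the 14824 with limma 3.58.1 under R 4.3.3 (linear model and empirical Bayes, two-sided, without an intensity trend), with 2 residual and 3.87 prior degrees of freedom and Benjamini-Hochberg adjustment. The fitting code was tested on simulated data. Intervals are 95% and are not adjusted for the number of genes. Precision is limited by the number of arrays; read depth does not apply.

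The members, the lists of other pathway genes and the markers were chosen with earlier results of these data known. Genes were named by rule: members called or with an unadjusted p below 0.05, in each role the 3 with the smallest p and the 2 with the highest level, and Axin2, Tcf7, Ctnnb1, Lrp5 and Wnt5a, which gave 31. In other pathway lists the called genes were named, or the 2 with the smallest p where fewer than 2 were called, and in marker lists the called genes and the 1 with the smallest p. Col1a1, Dcn, Pdgfra, Ppbp, Myc, Adipoq, Plin1, Tagln, Fcer1g, Esam, Lgr6 and the remaining members were added outside that rule, after their values were seen.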

Additional observations from a re-analysis of the deposited data

How the results depend on the processing

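Against the 274 named probe sets called, other settings gave 808 with an intensity trend, 650 of 7412 with dim probe sets left out, 123 with a replicate block, 2 in the fit of the whole table and 56 to 81 with 1 array left out. Members called higher stayed at 1 except in the whole-table fit (0). Members called lower, 2 as reported, came to 6 with an intensity trend, 7 with dim probe sets left out, 4 after cyclic loess, 1 with a replicate block, 0 in the whole-table fit and 0 with any 1 array left out; median centring gave 2. The count of other extracellular modulators, 1 as reported, was 2 with a trend, median centring or cyclic loess, 3 with dim probe sets left out, and 0 with a replicate block, in the whole-table fit or with any 1 array left out. Genes of transduction inside the cell, 0 as reported, came to 1 with a trend, median centring or dim probe sets left out. The polarity and calcium list stayed at 0 throughout. Of textbook targets, 3 as reported, 1 was called with a replicate block, 0 in the whole-table fit and 0 to 1 with 1 array left out. Fits with 1 array left out have 1 residual degree of freedom and take the lone array to vary like the other group; the cause of the other changes was not tested.

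The replicate numbers are in the labels of both groups, but deviations of same-numbered arrays correlated at r = 0.0056 over the named probe sets, so the arrays were not taken as pairs. With the replicate number as a block the calls of Wnt5a and Nkd2 held and that of Lgr5 did not (adjusted p 0.0841). Among 302 values of named members under other settings 270 kept direction and side of the threshold, 12 lost a call and 11 gained one. The 9 that turned sign were small and not called. With 1 array left out the log2 difference ran from -0.0564 to 0.228 for Lrp5, -0.0327 to 0.0869 for Ryk, -0.203 to 0.0330 for Sfrp2, -0.181 to 0.197 for Tcf7l1 and -0.278 to 0.0549 for Nkd1. After cyclic loess it was -0.0254 for Ror2, -0.0157 for Ryk and -0.0173 for Tcf7l1. Median centring moved the median difference of all probe sets to 0.03 and turned no member. For the 25 members below the median level, signal over background is unknown.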
